A study of Homo sapiens with 18 samples.

Results

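RNA levels were compared between KMS11 cells given back the F1177A form of MMSET II and KMS11 cells given back the Y1118A form, with 3 Illumina bead arrays in each group (6 of the 18 arrays of the series). The samples were taken by their titles, and the features were the probes with a detection p-value under 0.01 on at least 3 of these 6 arrays, which left 11845 of 48803 probes. They carry 8135 named genes, since 10170 probes have 1 gene symbol, 3 have several and 1675 have none. The labels call F1177A active and Y1118A inactive, so the comparison asks which RNAs differ between cells with a catalytically active and a catalytically inactive mutant of the same protein.

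KMS11 is a multiple myeloma cell line. All 4 repletion groups of the series share a knock-out of MMSET and a retroviral infection. They differ in what the virus carried, which was an empty vector (DSRed), wild-type MMSET II, the F1177A mutant or the Y1118A mutant. The other 2 of the 6 groups of 3 arrays, 18 arrays in all, hold an inducible hairpin and entered only the normalisation and the estimate of spread. Neither the promoter of the virus, nor the number of clones, nor the protein level reached is known from the labels. Each group is labelled as a triplicate with no mention of separate cultures, and the p-values thus measure a spread that may be technical.

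MMSET, now named NSD2, is a histone methyltransferase that places methyl groups on lysine 36 of histone H3, mainly the dimethyl mark, through its SET domain. In t(4;14) myeloma the translocation sets the gene under immunoglobulin enhancers and the cells carry high levels of this mark. Both changes named here replace an aromatic residue, phenylalanine (F) or tyrosine (Y), with alanine (A).

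Array brightness differed between the groups and bears on every result below. On the F1177A arrays the 95th percentile of intensity was 493.1, 368.5 and 380.0, and on those of Y1118A it was 765.7, 746.5 and 775.0, a mean log2 difference of -0.89. It was 1033 on array 3 of DSRed, 1.13 log2 units above the mean of the other two DSRed arrays. Across the 11845 probes, the shift of that array against the other two DSRed arrays had r = -0.617 with the difference F1177A minus Y1118A, as a description over probes of the same arrays. A fit over the 12 repletion arrays with brightness as a covariate is therefore set beside the list counts and the genes whose call it changed, and the part of brightness in the results without it cannot be told apart from the group by these 6 arrays alone.

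**Figure D1:**
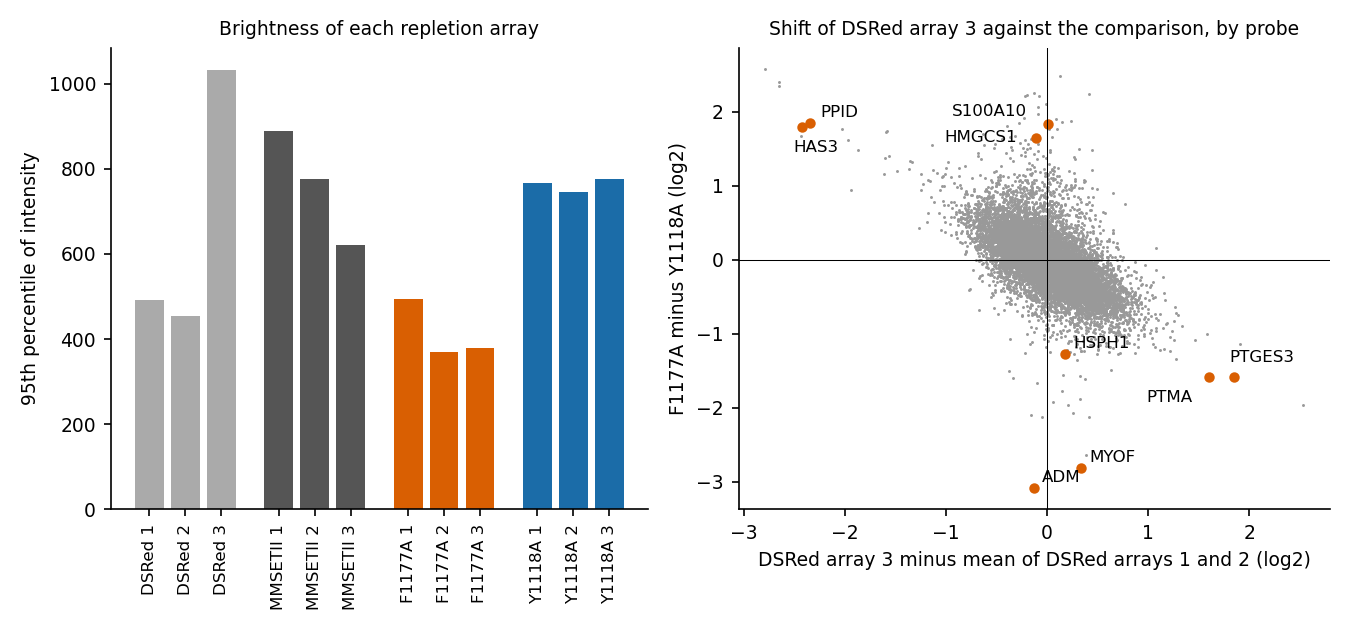
Left, the 95th percentile of intensity (linear scale) of each of the 12 repletion arrays, 3 per group, in which the F1177A bars (493.1, 368.5 and 380.0) lie below the Y1118A bars (765.7, 746.5 and 775.0). Right, for each probe the log2 shift of DSRed array 3 against the mean of DSRed arrays 1 and 2 (horizontal) and the log2 difference F1177A minus Y1118A (vertical), with 9 genes marked in orange. PPID, HAS3, PTMA and PTGES3 lie at the ends of the sloping cloud and ADM, MYOF, HSPH1, HMGCS1 and S100A10 lie between -0.13 and 0.33 on the horizontal axis.

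The targeted gene did not distinguish the groups. Of 4 NSD2 probes on the array, 3 were detected on none of the 18 arrays. The remaining probe (chromosome 4) read 5.88, 5.58 and 5.73 (log2 intensity) with F1177A and 5.52, 5.88 and 5.86 with Y1118A, and the groups overlapped. The difference was -0.02 (SE 0.127, limma adjusted p = 0.900), and MMSET II and DSRed read 5.59 and 5.62. It was -0.07 with brightness in the fit (adjusted p = 0.816), and with each array scaled by its own median it was called lower (-0.50, adjusted p = 0.0309). The labels do not say whether the viral constructs hold the sequence of this probe, and it therefore checks neither the knock-out nor the repletion.

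The plasma cell origin was borne out by 8 of 10 marker genes detected (CD38 and SLAMF7 were not). Their summed intensities were 13350 to 17020 with F1177A and 20255 to 21987 with Y1118A. All marker sums are of intensities before normalisation, so they carry the brightness difference of the arrays and do not compare marker levels between the groups. None of 8 T and NK cell markers or 3 earlier B cell markers was detected. Of 6 myeloid markers CD68 was, and of 10 markers of fibroblasts, endothelium and epithelium ACTA2, EPCAM, PDGFRB and PECAM1 were, at summed intensities of 147.6 to 213.2 with F1177A and 142.9 to 152.5 with Y1118A. In a population measured in bulk, fewer cells of a type and less RNA per cell cannot be told apart.

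RNA levels differed for 4498 of the 11845 probes (38%; limma with moderated variances, two-sided, Benjamini-Hochberg adjusted p under 0.05). With F1177A 2137 (18%) were higher and 2361 (19.9%) were lower, so 47.5% of the called probes were higher. This split depended on the scaling. With each array scaled by its own median, the median of all 11845 probes moved to -0.66 and 2.78% of 7869 called probes were higher. The median intensity over all probes of an array was near background, at 2.9 to 3.2 with F1177A and 3.2 to 3.3 with Y1118A. Median scaling therefore left the brightness difference largely in place. Scaling by the median of the detected probes gave 57.2% of 4837. With brightness in the fit 2381 probes were called (1174 higher, 1207 lower), 1736 of them also called without it and in the same direction, which is 38.6% of the 4498. With brightness in the fit and DSRed array 3 left out, 656 were called (387 higher, 269 lower).

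Large differences more often kept their call with that covariate. They have more margin at the threshold, so this does not measure how far the covariate moved them. At least 2-fold differences were called for 307 probes (196 higher and 111 lower with F1177A), and 257 of these (83.7%; 168 higher, 89 lower) were called in both fits. The 3 F1177A arrays and the 3 Y1118A arrays did not overlap for 62.7% of probes. Arrays of the same group correlated over the probes at r = 0.994 to 0.997 and arrays of different groups at r = 0.966 to 0.977.

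**Figure D2:**
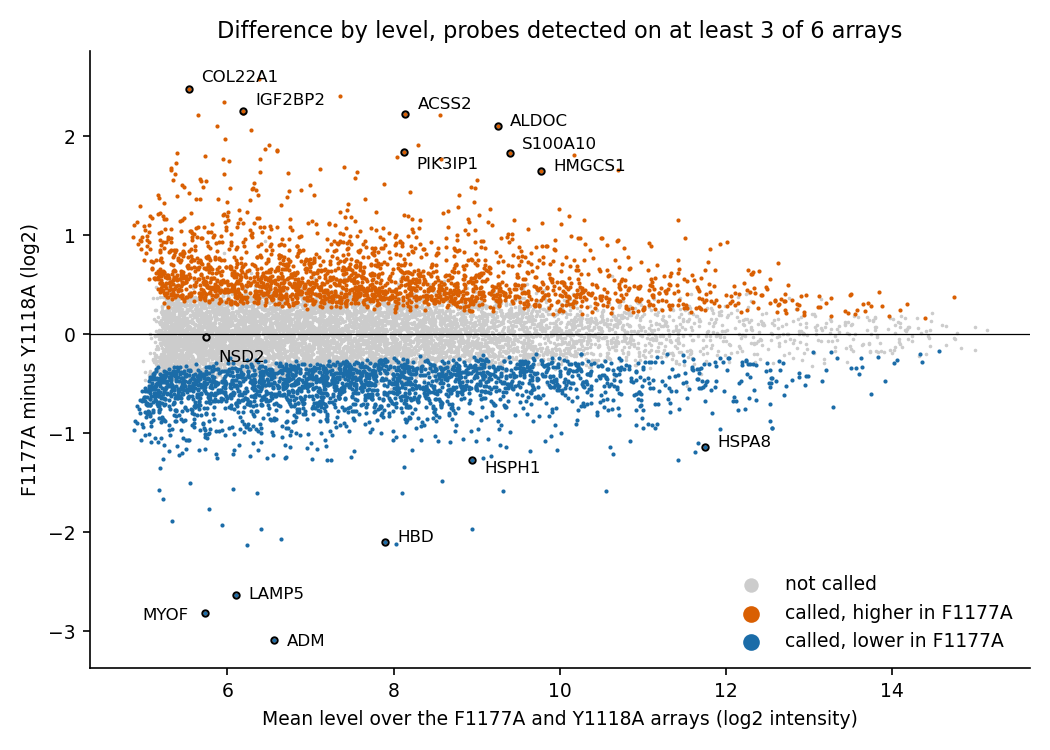
Each point is 1 of the 11845 probes, with its mean log2 intensity over the 6 arrays (horizontal) and the log2 difference F1177A minus Y1118A (vertical). Orange points were called higher and blue points lower with F1177A at an adjusted p under 0.05, grey points were not called, and 14 genes are ringed. Differences beyond 2 log2 units were mostly in probes of low or middle level, and NSD2 lies at -0.02.

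The level in wild-type MMSET II cells was not regularly on the side of the active mutant. Among the 196 probes at least 2-fold higher with F1177A than with Y1118A, the MMSET II mean was nearer to F1177A for 80 and nearer to Y1118A for 116. For the 111 probes at least 2-fold lower it was nearer to F1177A for 35 and to Y1118A for 76. DSRed lay nearer to F1177A for 87 of the 196 and 65 of the 111, or 97 and 82 without DSRed array 3. In brightness the MMSET II arrays lay close to the Y1118A arrays, 0.878 log2 units above the F1177A arrays, and the part of this in the counts was not tested. In the 257 probes called in both fits, MMSET II was nearer to F1177A for 79 of 168 higher and 33 of 89 lower probes.

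The deepest falls with F1177A were in genes that Y1118A cells held at clear levels and F1177A cells hardly at all. ADM (chromosome 11), which encodes the vasodilator peptide adrenomedullin and is a known hypoxia target, read 5.19, 5.17 and 4.71 with F1177A and 8.11, 8.08 and 8.14 with Y1118A. It was detected on no F1177A array and was at least 7.14-fold lower there (log2 difference -3.09, SE 0.138, limma adjusted p = 1.70e-11). Such a bound sets the brighter group against, per array, the lowest signal of any detected probe or the dim probe's own value, whichever is higher. MMSET II cells read 5.26 ± 0.14 (SD, n = 3), near F1177A, and DSRed cells 7.06 ± 0.08.

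MYOF (chromosome 10), a ferlin of membrane repair and fusion, had another order of levels. Its brightest probe read 4.28, 4.33 and 4.35 with F1177A and 7.24, 7.18 and 6.99 with Y1118A, without overlap. It was at least 3.64-fold lower with F1177A (-2.82, SE 0.118, adjusted p = 1.01e-11), and its other probe at least 1.22-fold lower (-1.01). The MMSET II level, 7.06 ± 0.14, did not differ from Y1118A by the same fit (-0.08, adjusted p = 0.699), nor did F1177A from the DSRed level of 4.53 ± 0.20 (-0.21, adjusted p = 0.223). Over all probes the fit called 17.7% for MMSET II against Y1118A and 20.6% for F1177A against DSRed. Wild-type and Y1118A cells thus held MYOF RNA at detected levels, and F1177A and empty-vector cells did not.

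LAMP5, a lysosome-associated membrane protein known from neurons and plasmacytoid dendritic cells, read 4.75, 4.90 and 4.71 with F1177A and 7.42, 7.33 and 7.51 with Y1118A. It was at least 4.42-fold lower with F1177A (-2.63, SE 0.124, adjusted p = 2.34e-11). CBLN2, a secreted synapse organiser, read 5.17 ± 0.25 against 7.30 ± 0.17 (-2.13) and was detected on 1 of 3 F1177A arrays. GALNT13, which starts mucin-type O-glycans, was at least 2.04-fold lower, and DDR2, a collagen receptor kinase, at least 1.61-fold lower. DSRed cells held CBLN2 at 7.23 ± 0.09 and GALNT13 at 6.28 ± 0.22, close to Y1118A. In MMSET II cells GALNT13 was low as with F1177A (4.76 ± 0.09). CBLN2 lay between F1177A and Y1118A there (5.95 ± 0.13), and MMSET II differed from Y1118A by -1.35 (limma adjusted p = 8.07e-06).

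Several falls were seen by more than one probe. The neuronal adhesion molecule NRCAM fell by 2.07 at its brightest probe and was at least 3.08-fold lower at the other. CHRNA1, a subunit of the muscle acetylcholine receptor, was detected on no F1177A array and was at least 1.995-fold and 1.72-fold lower at its probes. CASP1, the inflammasome protease, fell by 1.56, and was at least 2.62-fold lower at its other probe. ID2, which blocks basic helix-loop-helix transcription factors, read 7.26, 7.36 and 7.30 with F1177A and 8.89, 8.91 and 8.92 with Y1118A (-1.60, adjusted p = 1.68e-06), with -2.12 at its other probe. CYP26A1, which degrades retinoic acid, fell by 1.97 (at least 1.06-fold lower at its other probe), and ENC1, an actin-binding kelch protein, by 1.49. The brightest probes of these 6 genes were also called lower in the fit with brightness.

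The delta-globin gene HBD read 6.91, 6.83 and 6.79 with F1177A and 8.89, 8.94 and 9.02 with Y1118A, a fall of 2.10 (SE 0.171, adjusted p = 4.00e-08). MMSET II (8.61) and DSRed (8.43) lay near Y1118A. HBB, the beta-globin gene, was detected on no F1177A array and on 3 of 3 Y1118A arrays and was at least 1.16-fold lower, near background in both. The globin genes share near-identical sequence, so signal at one may come from another. Summed over the 7 erythroid markers on the array, intensity before normalisation was 61.7 to 105.8 with F1177A and 702.3 to 777.8 with Y1118A. These sums also carry the brightness difference of the arrays. HBA1, HBA2, HBG1, HBG2 and ALAS2 were detected on no array of these 6.

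Some of the genes with the largest rises were detected on few or no Y1118A arrays. COL22A1, the chain of collagen XXII, read 6.69, 6.87 and 6.77 with F1177A and 4.33, 4.32 and 4.23 with Y1118A, where it was detected on no array. It was at least 2.97-fold higher with F1177A (2.48, SE 0.116, adjusted p = 2.34e-11), above both MMSET II (5.32 ± 0.16) and DSRed (4.47 ± 0.08). IGF2BP2, an oncofetal RNA-binding protein that binds and stabilises mRNAs, read 7.32, 7.16 and 7.46 against 4.86, 5.14 and 5.18 (2.26, SE 0.151, adjusted p = 4.94e-09). Wild-type cells read 6.75 ± 0.06 and DSRed cells 4.70 ± 0.20, so the active constructs held it at detected levels on all arrays, and Y1118A on 1 of 3.

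IGFBP7, a secreted growth-factor binding protein, followed the same order of levels, with 7.33, 7.56 and 7.06 against 5.16, 5.33 and 5.26 (2.07, SE 0.154, adjusted p = 1.42e-08), 7.20 ± 0.26 in MMSET II and 4.64 ± 0.05 in DSRed. CLYBL, a mitochondrial lyase, rose by 2.24 at its brightest probe and was at least 3.38-fold higher at the other, with MMSET II at 6.83 and DSRed at 5.21 at the brighter one. GALNT18, a relative of the O-glycan enzyme named above, rose by 1.87, with MMSET II at 7.56 and DSRed at 4.54. S100A10, the partner of annexin A2, read 10.21, 10.37 and 10.37 against 8.37, 8.50 and 8.58 (1.83, SE 0.183, adjusted p = 6.59e-07), with 1.77 at its other probe. It was 10.73 ± 0.07 in MMSET II cells and 6.67 ± 0.09 in DSRed cells, so Y1118A cells lay between the empty vector and the active constructs.

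Other large rises were in genes whose brightest probe was detected on all arrays of both groups. ACSS2, which makes acetyl-CoA from acetate in the cytosol and nucleus, read 9.36, 9.21 and 9.18 against 7.07, 7.01 and 6.99 (2.23, SE 0.175, adjusted p = 2.85e-08), and F1177A was above MMSET II (8.26) and DSRed (8.06). The glycolytic enzyme ALDOC rose by 2.10, the medium-chain acyl-CoA synthetase ACSM3 by 1.87 (0.63 and 0.64 at its other probes) and ALOX5, the 5-lipoxygenase of leukotriene synthesis, by 1.91. BAIAP2L1, which couples membranes to actin, read 8.94, 8.95 and 8.94 against 7.15, 7.16 and 7.13 (1.80, SE 0.0891, adjusted p = 4.69e-11).

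HSPA6, the strictly inducible member of the HSP70 family, was not detected with Y1118A (4.60, 4.49 and 4.52) and read 6.69, 6.80 and 6.75 with F1177A, at least 2.92-fold higher (2.21, adjusted p = 8.99e-10). DSRed cells were at the F1177A level (6.74 ± 0.18) and MMSET II cells at 5.25 ± 0.15. LGMN, the lysosomal asparaginyl protease legumain, had a like order. It read 11.47, 11.50 and 11.62 with F1177A and 9.87, 9.86 and 9.87 with Y1118A (1.66, SE 0.107, adjusted p = 3.56e-09), with 1.81 at its other probe, 11.40 ± 0.22 in DSRed and 9.96 ± 0.11 in MMSET II. TNFRSF18, a TNF receptor family member, rose by 1.63 and 1.53 at its probes.

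**Figure D3:**
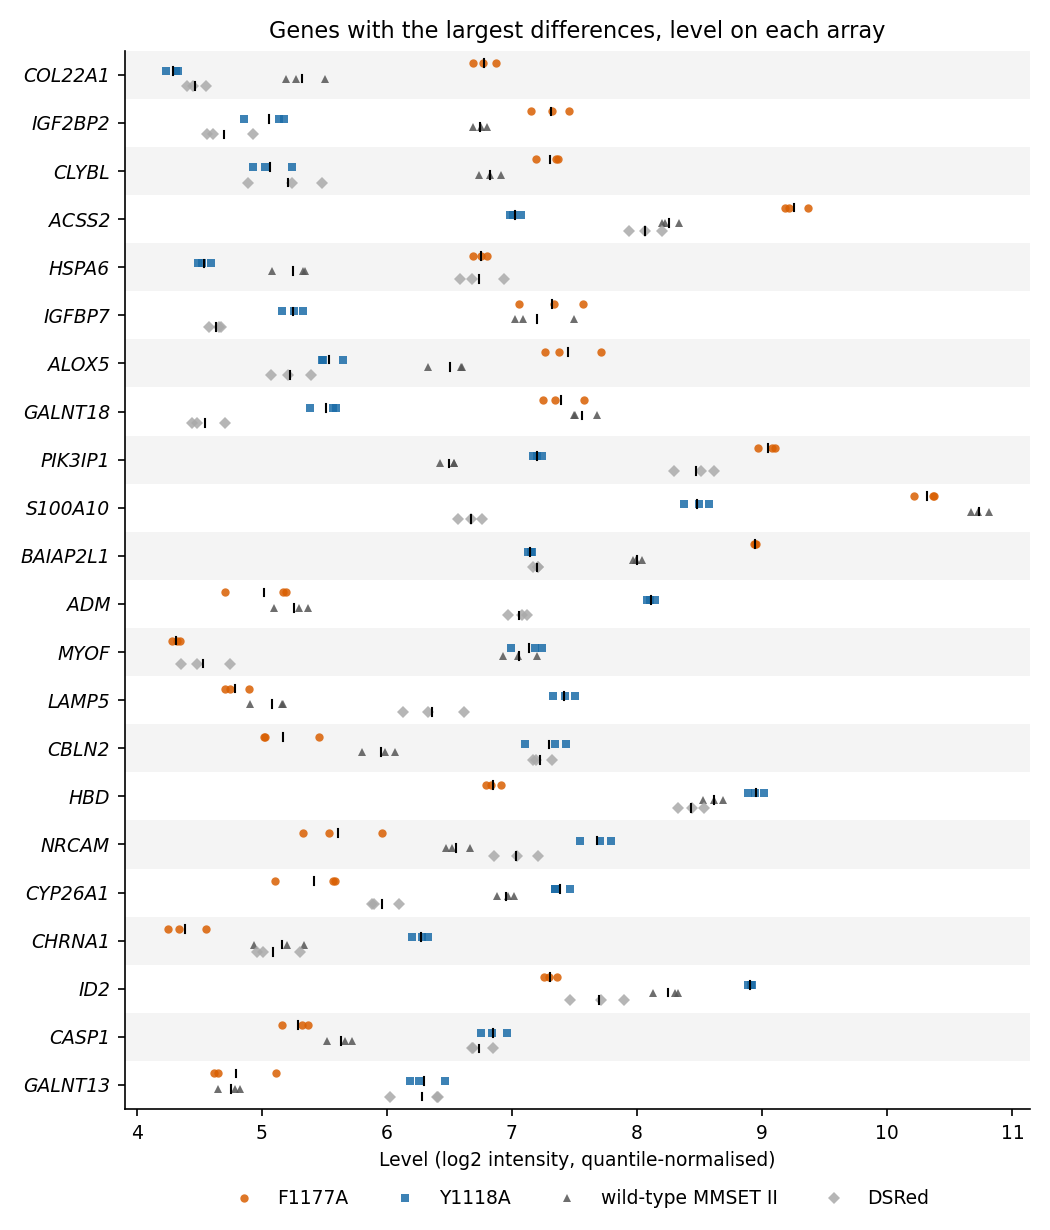
Level (log2 intensity, quantile-normalised) of 22 genes on each of the 3 arrays of F1177A (orange circles), Y1118A (blue squares), wild-type MMSET II (dark triangles) and DSRed (grey diamonds), with the group mean as a black tick. The orange and blue points do not overlap for any of the 22 genes, which were taken from those with the largest differences. MYOF has MMSET II beside Y1118A (7.06 and 7.14), while IGFBP7 has MMSET II beside F1177A (7.20 and 7.32).

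Of the 30 genes with the largest rises and falls, 4 were not called with brightness in the fit. PPID, a cyclophilin that partners HSP90, read 7.03, 7.90 and 7.65 against 5.68, 5.67 and 5.68 (1.85, adjusted p = 0.00647), and the hyaluronan synthase HAS3 rose by 1.80 (at least 2.69-fold). PTMA, prothymosin alpha, and PTGES3, the HSP90 co-chaperone p23, each fell by 1.58. On the bright DSRed array 3 these genes were shifted by -2.34, -2.42, 1.60 and 1.84 against the other two DSRed arrays, each opposite to its difference. With brightness in the fit their differences were -0.01, -0.02, -0.32 and -0.24 (adjusted p from 0.116 to 0.972), a fit that itself includes DSRed array 3. With that array left out they were at -0.05, 0.32, -0.33 and -0.65, and none was called. The other 26 of the 30 genes stayed called with the same sign in the fit with brightness that includes DSRed array 3. With that array left out GALNT13 was at -1.03 and not called (limma adjusted p = 0.0509).

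Probes of the same gene mostly moved together. Among 1755 genes with at least 2 probes in the comparison, 390 had at least 2 called probes, with the same sign in 360 and opposite signs in 30. ACTB, which codes for beta-actin, was among the latter, at 0.40 for one probe and -0.71 for another, and its brightest probe was not called (0.08, adjusted p = 0.589). GART and GABARAPL2 are also among the 30 and are counted below by their brightest probes, GART as lower (-0.29) in the MYC list and GABARAPL2 as higher (0.22) in the lysosome list, against 0.50 and -0.85 at their other probes.

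Cholesterol and fatty acid synthesis genes had the highest share of calls among the 31 gene lists with at least 4 measured genes. They are switched on together by the transcription factors SREBF1 and SREBF2 when membrane sterol runs low, and INSIG1 holds that switch back when sterol is plentiful. Of 23 measured members 18 were higher with F1177A and 0 lower, where 18% of all 8135 genes were higher and 21.2% lower. The median of the list was 0.79, against -0.02 over all genes. Under median scaling 4 were called higher and 3 lower and the median was 0.04, which is 0.70 above that of all probes. The fit with brightness called 20 higher, the 18 among them, and 1 lower, PMVK (-0.40, adjusted p = 0.0205), with a median of 0.69. Over all genes 8.17% were called higher and 7.61% lower in both fits. Of the 23 members, 14 were called in the brightness fit with DSRed array 3 left out. The counts of every list below stand against the same shares of all genes. These are 18% higher and 21.2% lower without brightness, and 8.17% and 7.61% in both fits. Counts given as with brightness in the fit are of that fit alone, so the shares in both fits are too small a measure for them. Over the 11845 probes the fit with brightness called 1174 higher and 1207 lower, where 924 and 812 were called in both fits.

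HMGCS1, the synthase that feeds the mevalonate pathway, read 10.68, 10.44 and 10.66 with F1177A and 9.0, 8.86 and 8.98 with Y1118A (1.65, SE 0.162, limma adjusted p = 5.49e-07). DHCR7, the reductase of the last step to cholesterol, read 9.56, 9.89 and 9.90 against 8.22, 8.15 and 8.30 (1.56, SE 0.171, adjusted p = 2.09e-06), with 1.48 at its other probe. Neither gene's groups overlapped, and the folds were 3.13 and 2.95. The decarboxylase MVD rose by 1.18, the desaturase FADS1 by 1.00, the factor SREBF1 by 0.89 and the epoxidase SQLE by 0.83. INSIG1 rose by 0.75 at its brightest probe, which was shifted by 0.77 on DSRed array 3, and by 1.91 at the other. Under median scaling the brightest probes of MVD, SREBF1, SQLE and INSIG1 were not called (0.45, 0.11, 0.05 and 0.04).

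Not called were the elongase ELOVL6 (0.30), CYP51A1 (0.24), the kinase PMVK (0.23), HSD17B7 (-0.20) and the carboxylase ACACA (-0.22). For most members the Y1118A arrays stood apart and the other 3 repletion groups lay close together. The median level over the 23 genes was 9.64 with F1177A, 9.58 with MMSET II, 9.50 with DSRed and 8.81 with Y1118A. For HMGCS1 the MMSET II level was 10.39 ± 0.08 and the DSRed level 9.91 ± 0.07.

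**Figure D4:**
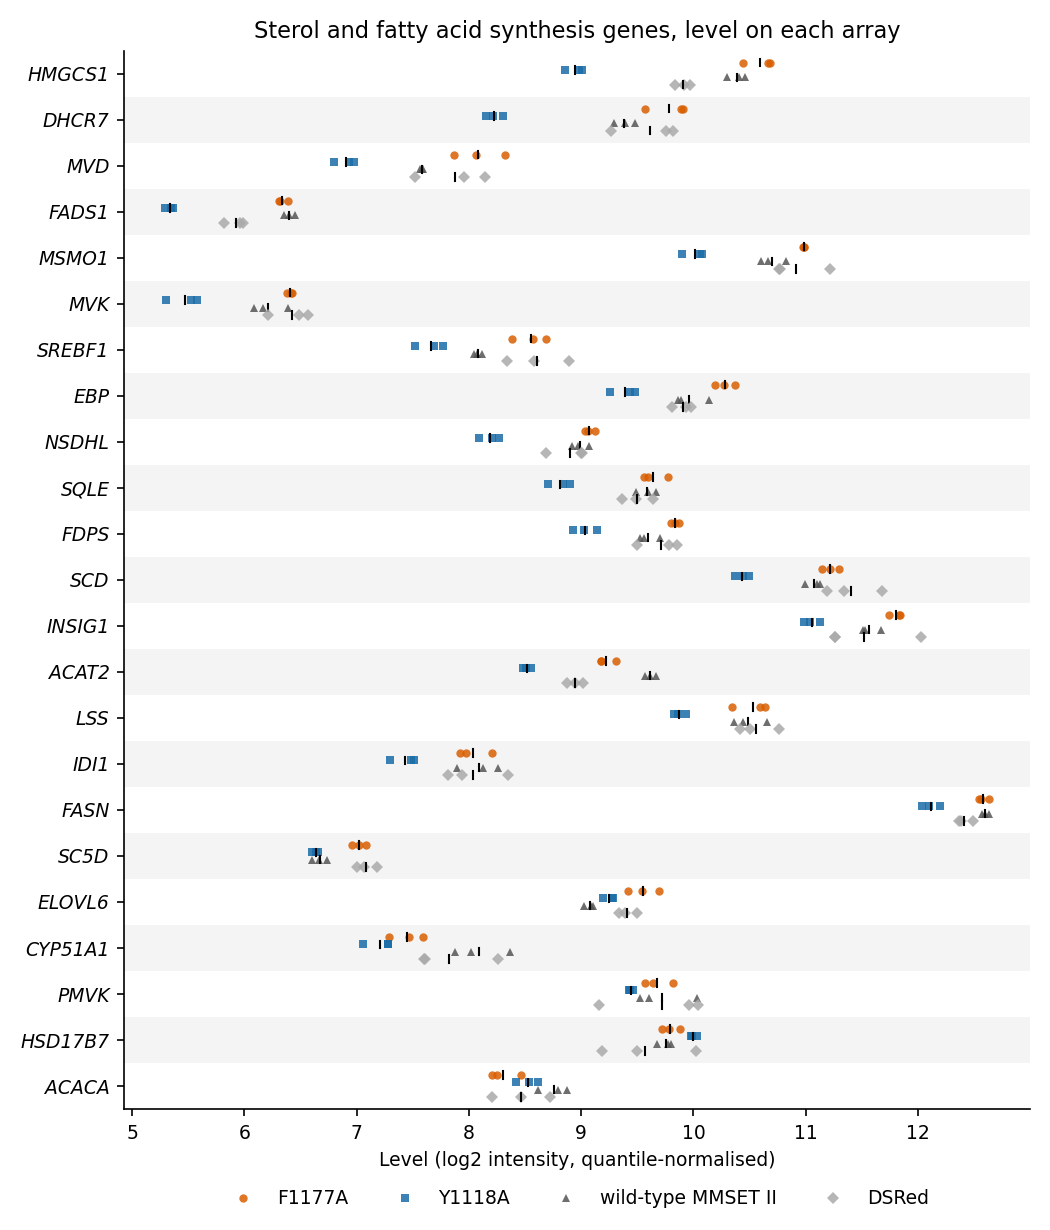
Level (log2 intensity, quantile-normalised) of the 23 measured sterol and fatty acid synthesis genes on each of the 3 arrays of F1177A (orange circles), Y1118A (blue squares), MMSET II (dark triangles) and DSRed (grey diamonds), with the group mean as a black tick. Genes are ordered by the difference F1177A minus Y1118A, from 1.65 in HMGCS1 to -0.22 in ACACA. In the upper rows the blue squares lie to the left of the other 3 groups.

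Since most of these genes moved together, the promoters of the list's members, called or not, were looked up. Of the 23 genes 20 have an entry in the RefSeq promoter table used (GRCh38.p14). In the 250 bases before the start, the letters CCAAT, on either strand, were found in 13 of 20 promoters (65.0%), and in 33% of 27305 promoters of the table. The 13 include HSD17B7, which was not called, and the 27305 are not limited to genes measured here. A link between these letters and the differences was not tested. CCAAT is the core bound by the factor NF-Y, a known partner of the sterol factors at such genes. The letters TCACCCCAC, part of a known sterol element, were found on either strand in 0 of 20 and in 0.348% of all promoters, so these exact letters are not in these windows. Shown for the genes discussed above, in the sense of the gene, are the 250 bases before the start, with CCAAT or its reverse complement ATTGG in capitals: HMGCS1 at chr5:43313413-43313662 (minus strand), DHCR7 at chr11:71448394-71448643 (minus strand) and INSIG1 at chr7:155297628-155297877 (plus strand).
HMGCS1: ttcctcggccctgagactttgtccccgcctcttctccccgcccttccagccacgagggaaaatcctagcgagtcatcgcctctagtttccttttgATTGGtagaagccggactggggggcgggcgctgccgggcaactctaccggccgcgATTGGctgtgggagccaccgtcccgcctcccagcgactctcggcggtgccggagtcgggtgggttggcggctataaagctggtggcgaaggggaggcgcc
DHCR7: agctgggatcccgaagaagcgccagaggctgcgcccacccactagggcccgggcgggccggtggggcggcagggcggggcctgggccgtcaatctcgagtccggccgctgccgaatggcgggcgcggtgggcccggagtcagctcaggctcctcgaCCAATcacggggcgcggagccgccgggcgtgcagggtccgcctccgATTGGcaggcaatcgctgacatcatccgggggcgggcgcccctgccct
INSIG1: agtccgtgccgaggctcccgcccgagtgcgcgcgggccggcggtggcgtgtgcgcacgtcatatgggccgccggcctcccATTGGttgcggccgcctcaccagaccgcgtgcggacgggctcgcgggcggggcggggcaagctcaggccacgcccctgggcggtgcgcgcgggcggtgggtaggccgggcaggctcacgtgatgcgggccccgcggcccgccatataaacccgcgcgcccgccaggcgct

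HMGCS1 and DHCR7 each hold 2 matches and INSIG1 holds 1. The match describes the sequence and does not show a bound site.

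Genes that restrain PI3 kinase signalling or mark resting cells were mostly higher with F1177A. Of 20 measured members 11 were higher and 2 lower, against 18% and 21.2% of all genes (median 0.34). Under median scaling 1 was higher and 6 lower (median -0.31, which is 0.36 above all probes), and with brightness in the fit 10 were higher and 0 lower. PIK3IP1, a membrane protein that inhibits PI3 kinase, read 9.10, 9.08 and 8.96 with F1177A and 7.17, 7.24 and 7.20 with Y1118A, a 3.59-fold difference (1.84, SE 0.129, adjusted p = 9.18e-09). MMSET II cells were lower still (6.50 ± 0.06) and DSRed cells were at 8.47 ± 0.17. YPEL3, linked to growth arrest, had the same order, at 9.20 ± 0.07, 7.98 ± 0.11, 6.73 ± 0.07 and 8.80 ± 0.10 in F1177A, Y1118A, MMSET II and DSRed. TSC22D3, the glucocorticoid-induced leucine zipper, rose by 1.21 (1.07 and 1.49 at its other probes) and the cell cycle inhibitor CDKN2D by 1.08. The calls of YPEL3, TSC22D3 and CDKN2D were not kept under median scaling (0.45, 0.43 and 0.44).

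Antigen presentation genes, which load peptides on surface HLA molecules, were higher with F1177A in 11 of 17 measured members and lower in 1, against 18% and 21.2% of all genes (median 0.47). Under median scaling 0 were higher and 4 lower (median -0.23, which is 0.43 above all probes). With brightness in the fit 7 were higher and 0 lower. HLA-F read 10.83, 11.02 and 10.77 against 9.71, 9.78 and 9.67 (1.15, SE 0.138, adjusted p = 6.50e-06), with 1.12 at its other probe. The peptide exchange chain HLA-DMA rose by 0.95, HLA-E by 0.85, HLA-B by 0.70 and B2M, the shared light chain, by 0.39 and 0.61 at its probes. HLA-B turned to -0.013 and B2M to -0.10 under median scaling, neither called. HLA class I genes are near-identical in parts, so probe signal cannot be assigned to one gene with certainty. ERAP2, a trimming peptidase, was called lower (-0.53, adjusted p = 0.0279), but was at 0.01 with brightness in the fit. Its call was lost without F1177A array 2 or 3 or any 1 of the Y1118A arrays (adjusted p from 0.0537 to 0.0825).

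Plasma cell genes moved both ways. Of 17 measured members 7 were higher and 3 lower with F1177A (median 0.05), against 18% and 21.2% of all genes. The counts were 8 and 2 with brightness in the fit and 0 and 9 under median scaling. TNFRSF17, the BCMA receptor of plasma cells, read 12.07, 12.19 and 12.18 against 11.38, 11.36 and 11.50 (0.73, SE 0.0884, adjusted p = 6.75e-06). MMSET II (12.17) and DSRed (12.14) lay at the F1177A level. Genes of the secretory apparatus were also higher, with DERL3 of the endoplasmic reticulum at 1.15, the peptidyl-prolyl isomerase FKBP11 at 0.59 and MZB1, which assists immunoglobulin assembly, at 0.48, while MZB1's other probe was at 0.03. Under median scaling FKBP11 and MZB1 turned to -0.18 and -0.20, neither called.

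The 3 lower members were SDC1, CAV1 and PRDM1. SDC1, the plasma cell proteoglycan CD138, read 4.96 ± 0.49 with F1177A, detected on 1 of 3 arrays, and 5.93 ± 0.07 with Y1118A (-0.97, adjusted p = 0.00216). With brightness in the fit it was at -0.75 (adjusted p = 0.0419), and with DSRed array 3 also left out at -0.00023. The caveolar protein CAV1 fell by 0.73. PRDM1, the plasma cell regulator BLIMP-1, was at -0.46 (adjusted p = 0.0114), at 0.0013 with brightness in the fit, and not called without Y1118A array 3 (adjusted p = 0.0610). Of 5 earlier B-cell genes measured, the factor SPIB was called lower (at least 1.39-fold).

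Proteasome subunits, which build the protease that degrades ubiquitin-tagged proteins, were lower with F1177A in 16 of 26 measured members and higher in 0. Over all genes 21.2% were lower and 18% higher. The median of the list was -0.31, and -0.36 relative to all probes under median scaling. With brightness in the fit 15 were lower, 10 of them called in both fits, where 7.61% of all genes were. In the brightness fit with DSRed array 3 left out 1 was lower. PSMD14, the lid enzyme that removes ubiquitin, read 8.37, 8.31 and 8.26 with F1177A and 9.33, 9.40 and 9.36 with Y1118A (-1.06, SE 0.182, adjusted p = 0.000268), and was at -0.53 with brightness in the fit. The base subunit PSMD1 fell by 0.64, with 10.01 ± 0.13 in MMSET II and 9.43 ± 0.00 in DSRed, and was at -0.72 with brightness in the fit. The core subunits PSMA3 and PSMA5 fell by 0.78 and 0.67. They were shifted by 0.82 and 0.50 on DSRed array 3, and PSMA3 was at -0.15 and not called with brightness in the fit (adjusted p = 0.232).

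Cytosolic heat shock proteins, the chaperones that fold proteins, were lower in 8 of 16 and higher in 1, against 21.2% and 18% of all genes. The counts were 9 and 0 with brightness in the fit. The median was -0.28, and -0.30 relative to all probes under median scaling. HSPH1, an HSP110 exchange factor, read 8.34, 8.30 and 8.30 with F1177A and 9.61, 9.61 and 9.53 with Y1118A (-1.27, SE 0.140, adjusted p = 2.18e-06). HSPA8, the constitutive HSC70, fell by 1.13 and 1.27 at its probes, CHORDC1, an HSP90 partner, was at least 2.05-fold lower, and HSP90AA1 fell by 0.94. HSP90AA1 was shifted by 0.82 on DSRed array 3 and was at -0.32 with brightness in the fit. The member called higher was HSF1, the factor that drives these genes (0.53, adjusted p = 0.0191). It was not called without F1177A array 2 or 3 or Y1118A array 2 (adjusted p from 0.0560 to 0.101), and was at 0.27 with brightness in the fit (adjusted p = 0.436). HSPA6, described above, is no member of this list and went the other way. HSPH1 and HSPA8 in MMSET II cells (9.24 and 12.12) lay nearer to Y1118A.

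Histone genes, whose products package DNA, were lower with F1177A in 7 of 18 measured members and higher in 0, against 21.2% and 18% of all genes. The counts were 9 and 0 with brightness in the fit. The median was -0.34, and -0.37 relative to all probes under median scaling. H2BC5 read 8.58, 8.53 and 8.57 against 9.89, 9.66 and 9.81 (-1.23, SE 0.175, adjusted p = 4.01e-05), with -0.88 at its other probe. The linker histone H1-2 fell by 0.76 and H2BC21 by 0.74. MMSET II cells (8.86, 10.70 and 6.85 for the 3 genes) lay on the F1177A side and DSRed cells (9.63, 11.16 and 7.57) on the Y1118A side. Histone genes share near-identical sequence, so the gene behind each signal is uncertain.

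Enzymes and readers of the mark that NSD2 writes showed no difference that was called in both fits. Of 4 measured H3K36 methyltransferases (NSD2, NSD3, SETMAR and SMYD2) 0 were called by limma at the threshold, although NSD3 had an unadjusted p of 0.0209 (-0.43), and 0 were called with brightness in the fit. Of 13 demethylases and readers of H3K36 methylation 5 were lower and 1 higher, and 0 with brightness in the fit. The lower ones included ZMYND11, a reader of the trimethyl mark (-0.58), and the mismatch repair protein MSH6 (-0.48). The Polycomb partner PHF19 was the higher one (0.48, adjusted p = 0.0362). It was at -0.0036 with brightness in the fit and -0.29 under median scaling, and was not called without F1177A array 2 or 3 or any 1 of the Y1118A arrays (adjusted p from 0.0633 to 0.114).

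Polycomb and DNA methylation genes, which maintain silent chromatin, were lower in 8 of 14 and higher in 1 (median -0.27), against 21.2% and 18% of all genes. With brightness in the fit 2 were lower. CBX2, which reads the Polycomb mark, fell by 0.83 and was at -0.88 with brightness in the fit, with 9.24 ± 0.01 in MMSET II and 7.73 ± 0.07 in DSRed. RBBP7, a histone chaperone subunit, fell by 0.80 but was shifted by 0.81 on DSRed array 3 and at -0.17 with brightness in the fit. CBX7 was the member called higher (0.51), at -0.29 under median scaling and not called with brightness in the fit (adjusted p = 0.131).

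Among genes reported high in t(4;14) myeloma, 4 of 9 measured were higher with F1177A and 2 lower (median 0.16), or 4 and 1 with brightness in the fit. Under median scaling 0 were higher and 4 lower (median -0.09, which is 0.58 above all probes). N-cadherin, CDH2, was at 7.49 ± 0.16 with F1177A and 6.72 ± 0.09 with Y1118A (0.78, adjusted p = 0.000837), with MMSET II at 8.44 ± 0.04 and DSRed at 5.65 ± 0.21. SERPINE2, a secreted protease inhibitor, was at 9.31 ± 0.05 and 8.55 ± 0.06 (0.76, adjusted p = 8.58e-06), with MMSET II at 9.26 ± 0.01 and DSRed at 7.32 ± 0.02. The mesenchymal factor TWIST1 rose by 0.75 and JAM3 by 0.45, and TWIST1, SERPINE2 and JAM3 turned to -0.04, -0.02 and -0.08 under median scaling, where none was called. JAM3 was not called without F1177A array 3 or Y1118A array 1 or 2 (adjusted p from 0.0623 to 0.0896). ITGB7, the integrin chain of gut homing, fell by 0.61 from a very high level (14.05 to 13.44). None of the 5 measured neighbours of NSD2 on 4p16 was called by limma, with differences from 0.04 to 0.29, against 39.2% of all genes. Scaling by the median of the detected probes called 3 of them higher (median 0.54), and median scaling called 2 lower (median -0.18).

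Cadherins, integrins and junction genes were higher in 6 of 14 and lower in 4 (median 0.15), against 18% and 21.2% of all genes. The counts were 6 and 2 with brightness in the fit. The epithelial adhesion molecule EPCAM rose by 0.89, with MMSET II at 6.93 and DSRed at 4.67 and undetected. EPCAM is also one of the markers of other cell types, of which ACTA2 (0.61) and PDGFRB (0.55) were higher too. Their part in the result was not tested, and COL1A1, COL1A2, COL3A1, KRT8, KRT18 and VWF were detected on none of the 6 arrays. The tetraspanin CD81 read 12.07, 12.06 and 12.10 against 11.42, 11.42 and 11.44 (0.65, SE 0.0919, adjusted p = 3.54e-05), and was at 0.01 under median scaling. The integrin chain ITGA4 fell by 0.60.

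Actin and focal adhesion genes split evenly, with 6 of 21 higher and 6 lower (median 0.08, or 8 and 5 with brightness in the fit). Besides S100A10, the higher ones included S100A4, which binds non-muscle myosin (1.17, and 0.98 at its other probe), the focal adhesion protein ZYX (1.16, and 1.02) and RAI14 (0.98). MARCKS and its relative MARCKSL1, which tie the membrane to actin, fell by 0.57 and 0.92. MARCKS had levels of 8.37 and 8.94 in the mutants and of 6.03 and 6.76 in MMSET II and DSRed, so both mutant groups lay above both others.

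Feedback genes of the ERK pathway were higher in 3 of 9 and lower in 3 (median -0.18), or in 2 and 0 with brightness in the fit. The phosphatase DUSP5 read 8.78, 8.77 and 8.75 with F1177A and 7.53, 7.48 and 7.71 with Y1118A (1.19, SE 0.104, adjusted p = 1.02e-07), with MMSET II at 9.01 and DSRed at 7.54. DUSP6, which acts on the same kinases, was at -0.58, at -0.13 with brightness in the fit, and not called without F1177A array 2 or Y1118A array 1 or 3 (adjusted p from 0.0525 to 0.0999). MYC rose by 0.43 at its brightest probe, was at -0.33 and not called at the other, and turned to -0.22 under median scaling.

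Amino acid response genes, the targets of the stress factor ATF4, were higher in 9 of 27 and lower in 0, against 18% and 21.2% of all genes (median 0.26), or in 8 and 1 with brightness in the fit. Under median scaling 0 were higher and 11 lower (median -0.49, which is 0.18 above all probes). ASNS, which makes asparagine, rose by 0.65, MTHFD2 of mitochondrial folate metabolism by 0.56 and the pseudokinase TRIB3 by 0.68, and these 3 turned to -0.06, -0.15 and -0.10 under median scaling. TRIB3 was not called without F1177A array 3 or Y1118A array 1 or 3 (adjusted p from 0.0511 to 0.0608). The transporter chain SLC3A2 (0.84) lost its call when any 1 of the 6 arrays was left out (adjusted p from 0.0532 to 0.103). DSRed levels of ASNS and TRIB3 (11.62 and 10.26) were above those of F1177A (11.38 and 9.49). Of 20 unfolded protein response genes 1 was lower, the sensor ATF6 (-0.47), which was not called without F1177A array 2 or Y1118A array 3 (adjusted p = 0.0597 and 0.0946). With brightness in the fit 3 of the 20 were higher and 4 lower, and 0 were called in both fits, so ATF6 was not.

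Of 27 glycolysis and hypoxia genes 6 were higher and 7 lower (median 0.11), or 6 and 2 with brightness in the fit, shares near the 18% and 21.2% of all genes. ALDOC and ADM, at 2.10 and -3.09, are both members. The kinase-phosphatase PFKFB4 rose by 1.13 and the prolyl hydroxylase P4HA1 by 0.94. The vascular growth factor VEGFA was at 1.32 and 1.14 at its probes, but was shifted by -1.34 and -1.03 on DSRed array 3, and at 0.27 with brightness in the fit (adjusted p = 0.111). Lactate dehydrogenase LDHA (-0.96) and hexokinase HK2 (-0.46) were at -0.14 and -0.12 in that fit, not called. HK2 was also not called without F1177A array 2 or 3 or Y1118A array 3 (adjusted p from 0.0629 to 0.0773).

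Immune signalling genes did not share a direction. Of 16 interferon-stimulated genes 3 were higher and 4 lower (median 0.07), near the 18% and 21.2% of all genes, and with brightness in the fit 3 were higher and 6 lower (median -0.18). The exonuclease ISG20 was at 9.49 ± 0.04 with F1177A and 8.08 ± 0.09 with Y1118A (1.41, adjusted p = 3.13e-08), with DSRed at 9.65 and MMSET II at 8.26. The antiviral GTPase MX1 rose by 1.07, while IFI44 was at least 1.49-fold lower and SAMD9 fell by 0.81. Of 16 NF-kB pathway genes 4 were higher and 3 lower (median 0.08), or 2 and 0 with brightness in the fit, with TNFAIP2 at 1.30, RELB at 0.60 (-0.19 under median scaling) and NFKB1 at -0.45 (not called with brightness in the fit). Of 10 BCL2 family genes 3 were higher and 3 lower (median 0.18), or 1 and 0 with brightness in the fit. The survival gene MCL1 was at 0.89, with 0.03 at its other probe, and BCL2 at -0.56, or -0.27 and not called with brightness in the fit (adjusted p = 0.0634).

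**Figure D5:**
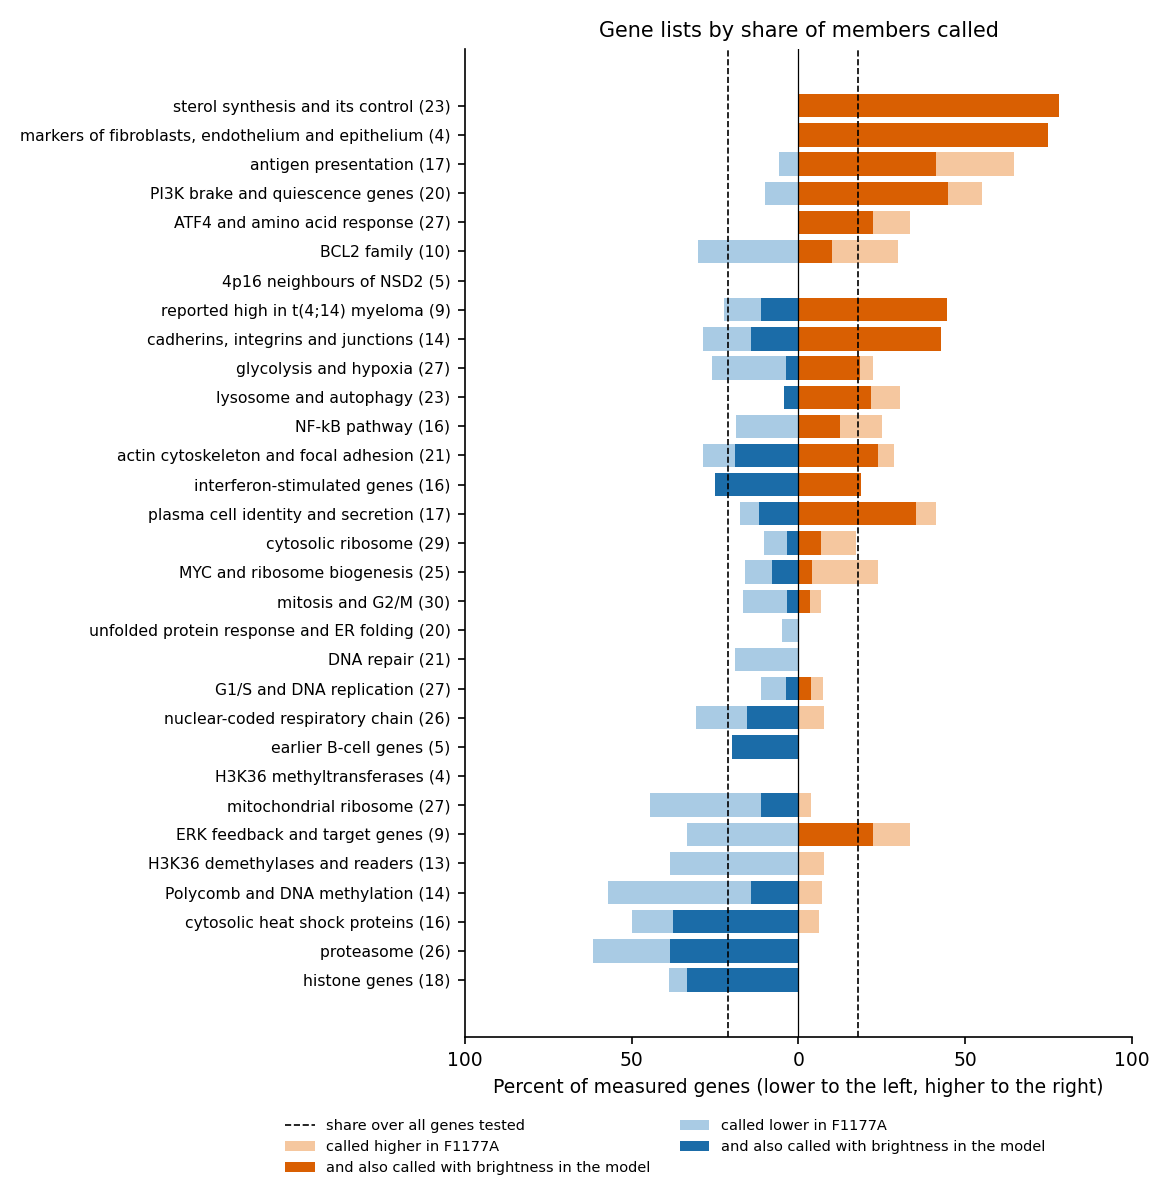
For the 31 gene lists with at least 4 measured genes (number in brackets), the percent of members called higher (orange, to the right) and lower (blue, to the left) with F1177A than with Y1118A, ordered by the list's median difference. The dark part of a bar is the share also called with brightness in the fit. The dashed lines mark the shares over all 8135 genes without brightness (18% higher, 21.2% lower). For the dark parts the shares over all genes were 8.17% higher and 7.61% lower. Sterol synthesis has 18 of 23 genes on the right, and the proteasome has 16 of 26 on the left.

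Growth-related lists differed little. Of 27 G1/S and replication genes 2 were higher and 3 lower, of 30 mitotic genes 2 and 5, and of 21 DNA repair genes 0 and 4, against 18% and 21.2% of all genes. In the fit with brightness the counts of these 3 lists were 1 and 4, 2 and 1, and 0 and 2. The uracil glycosylase UNG rose by 0.71 (-0.07 under median scaling) and the polymerase POLA1 fell by 0.67. Mitotic cyclin CCNB1 (-0.79), the spindle checkpoint protein MAD2L1 (-0.83) and the DNA damage sensor PARP1 (-0.63) were not called with brightness in the fit, where they were at -0.25, 0.06 and -0.21. MAD2L1 was also not called without any 1 of the F1177A arrays or Y1118A array 2 or 3 (adjusted p from 0.0552 to 0.0816).

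Of 25 MYC and ribosome biogenesis genes 6 were higher and 4 lower (median -0.0039), shares near the 18% and 21.2% of all genes. With brightness in the fit 3 were higher and 3 lower. The nucleolar proteins NOP56 and NCL fell by 0.58 and 0.92, and NCL was not called with brightness in the fit (-0.11). Polyamine enzyme ODC1 fell by 0.53, and PPAN was at 0.59, or -0.18 under median scaling. Among 29 cytosolic ribosomal proteins 5 were higher and 3 lower (median 0.05), against the same shares of all genes. The counts were 2 and 1 with brightness in the fit. Differences ran from RPL13A at 0.90 to RPS23 at -0.39, and ribosomal protein genes have many near-identical pseudogenes.

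Mitochondrial ribosomal proteins were lower in 12 of 27 and higher in 1 (median -0.18), or in 4 and 0 with brightness in the fit, and in 0 and 0 with DSRed array 3 also left out, where limma gave no member an adjusted p under 0.05. MRPL1 and MRPL3 fell by 1.01 and 0.82 and were at -0.34 and -0.18 with brightness in the fit. The member called higher, MRPS2 (0.35), was at -0.41 under median scaling and not called without F1177A array 2 (adjusted p = 0.0586). Of 26 respiratory chain genes coded in the nucleus 8 were lower and 2 higher (median -0.10), or 6 and 1 with brightness in the fit, with NDUFB3 at -0.57 and -0.72 at its probes, COX7B at -0.76 (-0.25 with brightness in the fit) and COX4I1 at 0.29 (-0.11 under median scaling).

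Lysosome and autophagy genes were higher in 7 of 23 and lower in 1 (median 0.11), against 18% and 21.2% of all genes. The counts were 7 and 2 with brightness in the fit and 0 and 12 under median scaling. The autophagy receptor SQSTM1 was at 9.93 ± 0.14 with F1177A and 8.92 ± 0.16 with Y1118A (1.01, adjusted p = 0.00169), with DSRed at 9.98 and MMSET II at 9.49. NPC2, which carries cholesterol out of lysosomes, rose by 0.65 (0.04 under median scaling). The membrane protein LAMP1 was the one lower (-0.35), not called without F1177A array 1 or Y1118A array 1 (adjusted p = 0.0583 and 0.0720). The myeloid marker CD68, also a lysosomal protein, was at 0.51, at -0.18 under median scaling and not called with brightness in the fit (adjusted p = 0.267).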

How the data were processed

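Per the labels' protocols, biotin-labelled RNA was hybridised to Illumina bead arrays, here of 48803 probes. The authors deposited a probe intensity and a detection p-value for each array, per the file headers, with intensities described as non-normalized there. The submitters' processing notes name GenomeStudio 1.5.4 and give it no role. Values below 0 make up 31.1% of the intensities, so some background was already subtracted. How this was done is not given in the sources used. The authors' series matrix, deposited as a second set of intensity values of the same arrays, served as an alternative. Each of the 54 per-sample columns was mapped and used.

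Here the background was corrected with neqc of limma 3.58.1 in R 4.3.3, with the negative controls inferred from the detection p-values and an offset of 16, which understates differences of dim genes. Values were quantile-normalised over the 18 arrays and put on the log2 scale. One model of the 6 group means (12 residual degrees of freedom), with variances moderated with an intensity trend, gave the differences, and p-values were adjusted over the 11845 probes. The model fit was also run on simulated data with independent noise for each probe. These had no brightness difference and no normalisation step, so that run does not bear on brightness. Errors of differences are standard errors, and errors of levels are standard deviations. The number of arrays limits the precision.

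Symbols came from the platform annotation, 0 changed on update, and the probe with the highest mean over the 6 arrays stands for its gene. Named are the NSD2 probes, the 15 largest rises and falls among called, non-overlapping genes with at least 1.5-fold differences, up to 4 called members per direction and list, and up to 5 genes per direction with several called probes. ACTB, NSD3, SREBF1, SQLE, INSIG1, ELOVL6, CYP51A1, PMVK, HSD17B7, ACACA, B2M, MTHFD2 and NPC2 were added after their values were seen. The comparison, the 34 lists (33 with a measured member) and the rules were chosen with earlier results of these data known. Shared replicate numbers were not used to pair the arrays in the main model. Alternatives changed the scaling, background, detection filter, arrays in the model, weights, trend, brightness covariate, replicate block and single arrays left out.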

Additional observations from a re-analysis of the deposited data

How the results depend on the processing

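The 133 called genes named in the text, which leave out uncalled ones such as NSD2, kept their direction and call under cyclic loess, quantile normalisation over the 6 arrays, no further background correction, the series matrix values, 6 or 12 arrays in the model, array weights, no intensity trend, scaling by the median of the detected probes and without DSRed array 3. An offset of 50 ended 1 call and no detection filter 8, and under detection on all 6 arrays 112 were tested and kept theirs. Called probes numbered 7869 with median scaling, 6806 with quantile normalisation over the 6 arrays, 6804 with the 6 arrays alone in the model, 7071 with array weights, 2381 with brightness as a covariate and 656 with that covariate and DSRed array 3 left out, against 4498. Of the called probes, 2.78% were higher with F1177A under median scaling and 59.0% with brightness and without DSRed array 3, against 47.5%. With 1 of the 6 arrays left out, 3099 to 3874 probes were called, 47.3% to 48.6% of them higher. The causes were not tested.

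The NSD2 difference ran from -0.50 (median scaling, adjusted p = 0.0309) to 0.22 (scaling by the median of the detected probes), with 0.018 under cyclic loess and 0.0012 with array weights. It ran from -0.14 to 0.051 with 1 array left out, turning to 0.051 without F1177A array 2, 0.043 without Y1118A array 2 and 0.029 without Y1118A array 3. The cause was not tested.

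Median scaling, which left the brightness difference largely in place, ended the call of 27 of the 133 called genes without a change of sign. It turned the sign of 19 others. The values were -0.062 for ASNS, -0.29 for CBX7, -0.18 for CD68, -0.11 for COX4I1, -0.18 for FKBP11, -0.013 for HLA-B, -0.080 for JAM3, -0.41 for MRPS2, -0.22 for MYC and -0.20 for MZB1. They were -0.29 for PHF19, -0.18 for PPAN, -0.19 for RELB, -0.024 for SERPINE2, -0.10 for TRIB3, -0.044 for TWIST1, -0.072 for UNG, -0.15 for MTHFD2 and -0.10 for B2M. With brightness as a covariate ERAP2 turned to 0.011, HAS3 to -0.019, MAD2L1 to 0.065, PHF19 to -0.0036, PPID to -0.014 and PRDM1 to 0.0013. None of these 6 was called in that fit. A further 25 of the 133 kept their sign and lost their call, and 102 kept both. With DSRed array 3 also left out, HK2 turned to 0.079, PHF19 to -0.061 and PPID to -0.046, and none of these was called. A further 58 of the 133 kept their sign and lost their call.

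Arrays with the same replicate number deviated from their group means with r = -0.098, 0.147 and 0.279, and arrays with different numbers with r from -0.266 to 0.130. With 3 arrays per group these values cannot decide whether the numbers pair the arrays. With the number as a replicate block 5287 probes were called, 47.3% of them higher, NSD2 stood at -0.02, and no call of the 133 genes was lost. A slide block was not run, since the files name no slide. The scaling by detected probes and both fits without DSRed array 3 were added after seeing the data. For a probe detected on no array of a group only a bound on the fold is measured.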
